A study of Gallus gallus with 18 samples.

Results

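Between HH15-16 and HH17-18 of chick development, transcripts of the developing trigeminal ganglion were compared across all genes with enough counts to test. HH numbers are the Hamburger-Hamilton stages, which order chick embryos by their external form. The comparison took all 12 libraries of these 2 stages, of 18 in the whole series, and the 2 technical libraries of each biological replicate were summed, which left 3 pools at HH15-16 and 3 at HH17-18. Each pool was a collection of trigeminal ganglia from wildtype chicken embryos, with no treatment named in the labels, and its poly(A)-enriched RNA was sequenced on lanes 7 and 8. The remaining 3 pools of the series, from HH13-14, entered the same fit and are shown beside the results. Of 30108 genes in the table, 17724 passed the filter on low counts and were tested.

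The trigeminal ganglion is the sensory ganglion of the face. Its neurons come from ectodermal placodes and from the neural crest, while its glia come from the crest, and in birds the placodal neurons differentiate before those of the crest. Young sensory neurons send axons towards the skin and the jaw, switch on receptors for neurotrophins, and then depend on these factors made by their targets. The ganglion lies among head mesenchyme, vessels and surface ectoderm, so that pooled dissected tissue can hold these cells as well.

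The 6 pools compared held 53458986 to 67193695 counts each. All 16 markers of sensory neurons, neural crest and placode that were looked up were detected in every pool, among them SOX10 at 69.6 to 236 CPM (counts scaled to a common library size), TUBB3 at 688 to 1182 CPM and POU4F1 at 0.954 to 3.66 CPM. HH15-16 replicate 1 stood apart. Its log2 CPM correlated with those of the other HH15-16 pools at 0.980 and 0.976, while these correlated with each other at 0.986. The biological coefficient of variation was 24.7% within HH15-16 and 21.2% within HH17-18. It was 20.2% in the fit of all pools and 18% without HH15-16 replicate 1. In that replicate the summed level of 17 neural crest genes was 1052 CPM, against 1466 and 1801 CPM in the other HH15-16 pools, and that of 23 head mesenchyme genes was 1026 CPM, against 1718 and 2138 CPM. Its summed level of 23 neural tube genes was 1150 CPM, against 744 and 511 CPM. Other pools differed in these sums too. HH17-18 replicate 2 had 2712 CPM of the head mesenchyme genes, against 1684 and 1900 CPM in the other HH17-18 pools. Its neural tube genes summed to 358 CPM, against 832 and 675 CPM.

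Few genes passed the threshold between these stages in the edgeR fit of all pools. With 3 pools per stage, genes short of the threshold are not shown to be unchanged. Past an adjusted p of 0.05, 3 genes were higher at HH17-18 (0.0169% of the genes tested) and 11 were lower (0.0621%), by the quasi-likelihood test of edgeR with Benjamini-Hochberg adjustment. Together they were 0.079% of the genes tested. The numbers of higher and lower genes depended on the setting. They were 0 and 1 in the fit of the 2 stages alone and 19 and 17 without HH15-16 replicate 3. In the DESeq2 test they were 174 and 175. Adjusted p-values below are from the edgeR fit of all pools unless DESeq2 or another setting is named. The genes that rose were TNFAIP6, HGF and GDF10, each of which encodes a secreted protein. Those that fell and carry a symbol were CCDC3, LIN28A, WNT16, BPIFB6, BPIFB3, AJAP1, GABRB2, RHOU and NR6A1. In all 14 genes, the 3 pools of one stage lay entirely above the 3 of the other. Over all genes tested, 5.94% had such pools in the higher direction and 5.55% in the lower direction. The median log2 fold change of all genes was -0.002. Since the RNA came from whole ganglia, a lower level can stem from fewer cells of a type or from less RNA in each cell, and these cannot be told apart.

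**Figure D1:**
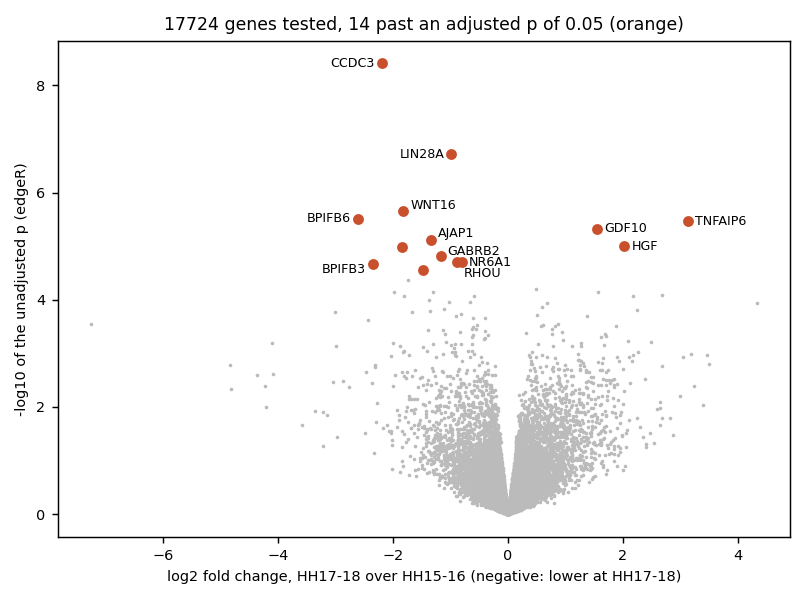
Each point is 1 of 17724 genes, placed by its log2 fold change from HH15-16 to HH17-18 (x axis) and by the -log10 of its unadjusted p from edgeR (y axis). The 14 orange points passed an adjusted p of 0.05, with CCDC3 highest on the plot and LIN28A next, and 2 of them have no symbol and no label.

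TNFAIP6, a secreted protein that binds hyaluronan and helps to cross-link it in the matrix, had the steepest rise. It stood at 0.511, 0.867 and 0.912 CPM at HH15-16 and 4.95, 9.36 and 5.87 CPM at HH17-18 in replicates 1 to 3. The pools did not overlap, and the lowest HH17-18 pool was above every HH15-16 pool by several fold. It had a log2 fold change of 3.13 (SE 0.35, adjusted p 0.0123), a rise of 8.77-fold. The 3 HH13-14 pools, at 0.654, 1.16 and 0.744 CPM, were as low as those of HH15-16. By its symbol the gene lies on chromosome 7, 34724291 to 34754468, in the RefSeq annotation of GRCg7b, the build used for all positions given here.

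HGF is the ligand of the receptor tyrosine kinase MET and guides migrating muscle precursors and growing axons in vertebrate embryos. Its pools were at 5.11, 5.65 and 6.50 CPM at HH15-16 and 15.9, 34.04 and 20.5 CPM at HH17-18. HH17-18 replicate 2 was the highest of them, and no pools overlapped. HGF rose by a log2 fold change of 2.03 (SE 0.26, adjusted p 0.0201), or 4.08-fold. At HH13-14 it was at 1.90, 1.91 and 2.32 CPM, so that the earlier step had a log2 fold change of 1.49 (adjusted p 0.405). HGF lies on chromosome 1, 10859559 to 10922316, where the annotation also places an uncharacterized gene. MET itself gave a log2 fold change of 0.69 (SE 0.36, adjusted p 0.599), with 3.82, 2.93 and 3.50 CPM at HH15-16 and 2.96, 9.14 and 4.45 CPM at HH17-18. The MET pools overlapped between stages.

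GDF10, a ligand of the TGF-beta superfamily that is related to BMP3, was the third gene that rose. Its values were 3.20, 2.70 and 3.19 CPM at HH15-16 and 7.92, 9.03 and 9.87 CPM at HH17-18. These pools were close together within each stage and did not overlap between stages. The log2 fold change was 1.56 (SE 0.18, adjusted p 0.0141), or 2.95-fold. The gene lies on chromosome 6, 18779996 to 18794409.

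Among the genes that fell, CCDC3 had the smallest p of the whole comparison. It encodes a secreted coiled-coil protein, known in mammals from endothelial and fat cells. It was measured at 36.6, 45.6 and 36.01 CPM at HH15-16 and 8.07, 9.51 and 8.24 CPM at HH17-18. The highest HH17-18 pool was far below the lowest HH15-16 pool, and the HH13-14 pools, at 40.8, 37.8 and 41.4 CPM, were at the level of HH15-16. CCDC3 fell by a log2 fold change of -2.20 (SE 0.12, adjusted p 6.85e-05), which is 4.58-fold lower. It lies on chromosome 1, 7213796 to 7255281, where an uncharacterized gene overlaps it.

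LIN28A encodes an RNA-binding protein that blocks the maturation of let-7 microRNAs and marks early, immature cell states. Its pools were at 334, 329.6 and 392 CPM at HH15-16 and 184, 187 and 162 CPM at HH17-18. Its pools were tightly grouped at each stage and did not overlap between stages. LIN28A fell by a log2 fold change of -0.99 (SE 0.08, adjusted p 0.00170), or 1.98-fold. The gene lies on chromosome 23, 549150 to 560450. NR6A1, an orphan nuclear receptor of early embryos that is a known let-7 target in mammals, was at 146, 120.3 and 112 CPM at HH15-16 and 67.2, 70.5 and 79.6 CPM at HH17-18. It fell by a log2 fold change of -0.80 (SE 0.11, adjusted p 0.0294). NR6A1 lies on chromosome 17, 10056523 to 10121763, and the genes of the microRNAs MIR181A2 and MIR181B2 overlap it.

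WNT16, a secreted WNT ligand, was at 9.37, 6.47 and 8.22 CPM at HH15-16 and 2.39, 2.32 and 2.08 CPM at HH17-18. Every HH17-18 pool was below every HH15-16 pool, and the log2 fold change was -1.82 (SE 0.20, adjusted p 0.0123). It lies on chromosome 1, 23406831 to 23419292. RHOU, an atypical small GTPase that WNT signals can induce in mammalian cells, was at 77.3, 65.7 and 62.8 CPM at HH15-16 and 32.8, 38.1 and 40.6 CPM at HH17-18. It fell by a smaller amount, a log2 fold change of -0.88 (SE 0.12, adjusted p 0.0294), and lies on chromosome 3, 39461761 to 39468612. AJAP1, a transmembrane protein of adherens junctions, was at 25.6, 21.7 and 19.01 CPM at HH15-16 and 8.75, 7.09 and 10.2 CPM at HH17-18. The log2 fold change was -1.34 (SE 0.17, adjusted p 0.0194), with no overlap of the pools, and the gene lies on chromosome 21, 793845 to 831829.

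BPIFB6 and BPIFB3 belong to a family of lipid-binding proteins, and both fell. BPIFB6 was at 5.01, 6.69 and 5.78 CPM at HH15-16 and 0.582, 1.08 and 1.21 CPM at HH17-18 and had a log2 fold change of -2.61 (SE 0.29, adjusted p 0.0123). BPIFB3 was at 1.84, 1.20 and 1.22 CPM at HH15-16 and 0.184, 0.292 and 0.352 CPM at HH17-18 and had a log2 fold change of -2.36 (SE 0.33, adjusted p 0.0294). Members of such a family can share reads, and BPIFB3, on chromosome 20, 10613263 to 10638323, overlaps MAPRE1, so that their counts are uncertain. GABRB2, a subunit of the GABA-A receptor, was at 7.84, 6.50 and 7.05 CPM at HH15-16 and 3.02, 3.20 and 3.25 CPM at HH17-18. Its log2 fold change was -1.17 (SE 0.16, adjusted p 0.0272). GABRB2 lies on chromosome 13, 6767366 to 7103235, an interval that also holds GABRA6. The 2 genes with no symbol, ENSGALG00010012598 and ENSGALG00010015979, fell by log2 fold changes of -1.84 and -1.48 (adjusted p 0.0201 and 0.0360).

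**Figure D2:**
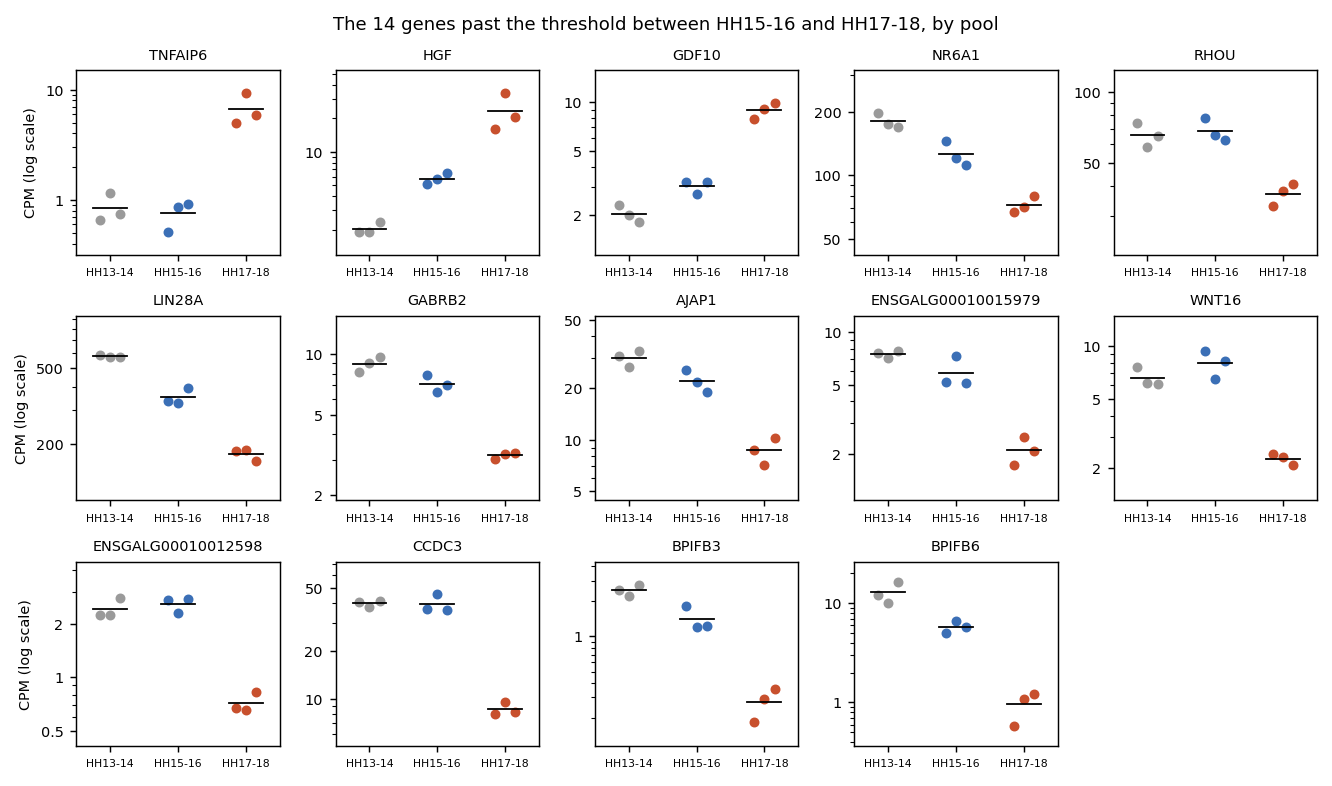
CPM of the 14 genes past the threshold in each of 9 pools (y axis, log scale), grouped by stage (x axis), with replicates 1 to 3 from left to right as points and the mean of each stage as a line. In every panel the 3 HH17-18 pools lie entirely above or entirely below the 3 HH15-16 pools, as for CCDC3, with 8.07 to 9.51 CPM against 36.0 to 45.6 CPM.

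How firmly these calls held differed from gene to gene. CCDC3 passed the threshold under all 18 alternative settings, with log2 fold changes from -2.30 to -2.08, and LIN28A under all but the fit of these 2 stages alone, where its adjusted p was 0.064. BPIFB6 lost the call in 2 settings, WNT16 and TNFAIP6 in 3 each, GDF10 in 4 and AJAP1 in 6. HGF lost it in 7, NR6A1 and ENSGALG00010015979 in 9 each, ENSGALG00010012598 in 10, RHOU and GABRB2 in 11 each, and BPIFB3 in 12. The direction of all 14 was the same in every setting. Single pools decided many calls. Without HH15-16 replicate 2, 3 genes passed in all, CCDC3, LIN28A and WNT16. Without HH17-18 replicate 3, 5 passed, and the calls of HGF, GDF10, WNT16, RHOU, GABRB2, NR6A1 and BPIFB3 were among those lost. Leaving out HH17-18 replicate 1 ended the calls of RHOU, GABRB2, BPIFB3, NR6A1 and AJAP1 and of both genes without a symbol, and leaving out HH17-18 replicate 2 those of RHOU, GABRB2, BPIFB3, NR6A1 and ENSGALG00010012598. Each HH13-14 pool also mattered, since 6 or 7 of the 14 passed without it. These pools bear on the comparison through the shared filter, scaling and estimate of spread. In the fit of the 2 stages alone, CCDC3 was the single gene past the threshold.

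Leaving out a pool could also add genes. Without HH15-16 replicate 1, the pool that stood apart, 27 genes passed (0.149% of the genes tested there), 4 higher and 23 lower, and all 14 were among them. Those added included CYP26C1, which breaks down retinoic acid (adjusted p 0.000353), ANGPTL7, a secreted angiopoietin-like protein (adjusted p 0.00179), GATA5, a transcription factor of endoderm and heart (adjusted p 0.0106), and the homeobox gene DLX5 (adjusted p 0.0368). All 4 were lower at HH17-18. Without HH15-16 replicate 3, 36 genes passed, 19 of them higher, and again all 14 were included. The DESeq2 test, with its own size factors and filter, gave 174 higher (0.993%) and 175 lower (0.998%) of 17528 genes, and all 14 were also past its threshold.

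**Figure D3:**
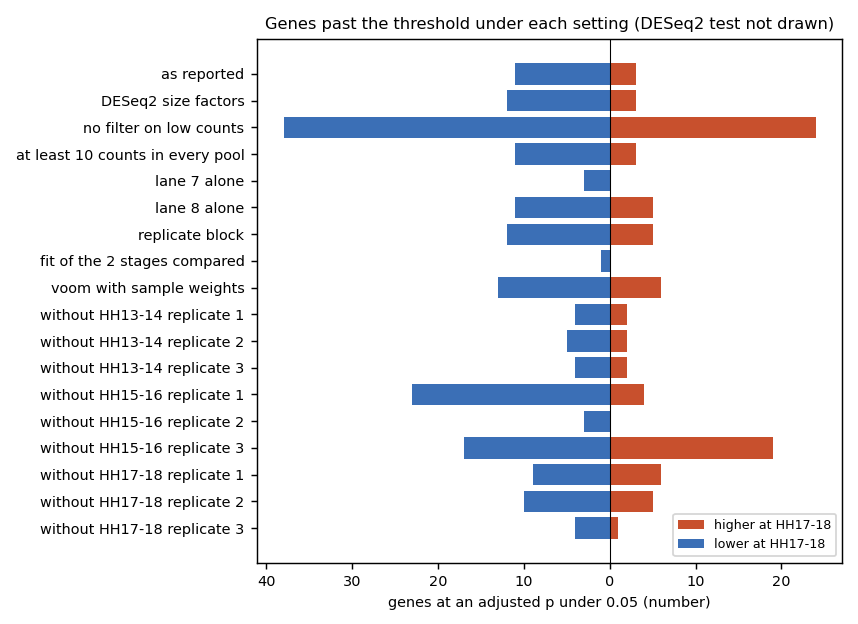
Number of genes past an adjusted p of 0.05 (x axis) under the reported fit and 17 alternative settings (y axis), with genes lower at HH17-18 in blue to the left and genes higher in orange to the right. The reported 3 higher and 11 lower genes became 0 and 3 without HH15-16 replicate 2, and 19 and 17 without HH15-16 replicate 3.

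Just short of the threshold, in each direction the 12 genes with the smallest p whose pools did not overlap and whose mean was at least 5 CPM were listed, and none of them is called changed. The higher ones were MN1, PI15, BMPER, FOXP4, ADGRL2, ANGPTL2, PLCB2, HHIP, SEMA5B, ABTB2, SKIL and HAPLN1, with log2 fold changes of 0.49 to 2.68 and adjusted p-values of 0.0666 to 0.123. PI15, a secreted peptidase inhibitor, had the largest value among them. It was at 7.34, 17.6 and 27.7 CPM at HH15-16 and 76.4, 174 and 88.1 CPM at HH17-18. It had a log2 fold change of 2.68 (SE 0.43, adjusted p 0.0666), and without HH15-16 replicate 1 its adjusted p was 0.0368. MN1, a transcriptional coregulator needed for skull and palate in mice, had a small but even difference, with 143, 130.3 and 148 CPM at HH15-16 and 191, 194 and 204 CPM at HH17-18. ADGRL2, an adhesion receptor of the latrophilin family, was at 216, 184 and 224 CPM at HH15-16 and 318, 298 and 325 CPM at HH17-18. Of the others, SEMA5B is a semaphorin, HHIP binds hedgehog ligands, SKIL restrains SMAD-dependent transcription, and HAPLN1 links hyaluronan to proteoglycans.

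The lower ones were CYP26C1, TF, RASGRF1, VAT1L, ANGPTL7, BMP4, CLEC19A, MXRA8, LAMA5, CLIC6, NPM3 and DISP1, with log2 fold changes of -1.98 to -0.40 and adjusted p-values of 0.0510 to 0.0959. TF, which encodes the iron carrier transferrin, was at 143, 226 and 153 CPM at HH15-16 and 74.8, 85.5 and 51.8 CPM at HH17-18 (log2 fold change -1.30, SE 0.21, adjusted p 0.0666). LAMA5, a laminin chain of basement membranes, was at 206, 243 and 159 CPM at HH15-16 and 134, 109 and 104 CPM at HH17-18 (log2 fold change -0.81, SE 0.14, adjusted p 0.0943). DISP1, which releases hedgehog ligands from the cells that make them, was at 87.5, 83.8 and 88.3 CPM at HH15-16 and 63.9, 63.9 and 68.7 CPM at HH17-18 (log2 fold change -0.40, SE 0.07, adjusted p 0.0959). That all HH17-18 pools were below all HH15-16 pools in these genes follows from how they were picked.

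Groups of genes were then described from 34 lists with 704 genes, of which 617 were tested. Of these, 6 passed the adjusted threshold, namely TNFAIP6, HGF, GDF10, LIN28A, NR6A1 and WNT16. For the others, the counts below are of members at an unadjusted p under 0.05 in edgeR, which are not calls. Over all genes tested, 904 (5.1%) were at that level and higher at HH17-18, and 747 (4.21%) were lower. When each of the 9 pools was left out in turn, these shares ran from 3.05% to 7.18% higher and from 3.28% to 5.64% lower. Without HH15-16 replicate 1 they were 3.52% and 4.03%. Counts shifted by 1 or 2 genes in many lists when a pool was left out, so that a count of 3 or fewer can rest on a single pool. Shifts of 3 or more are named beside the list or lie within the range given there.

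**Figure D4:**
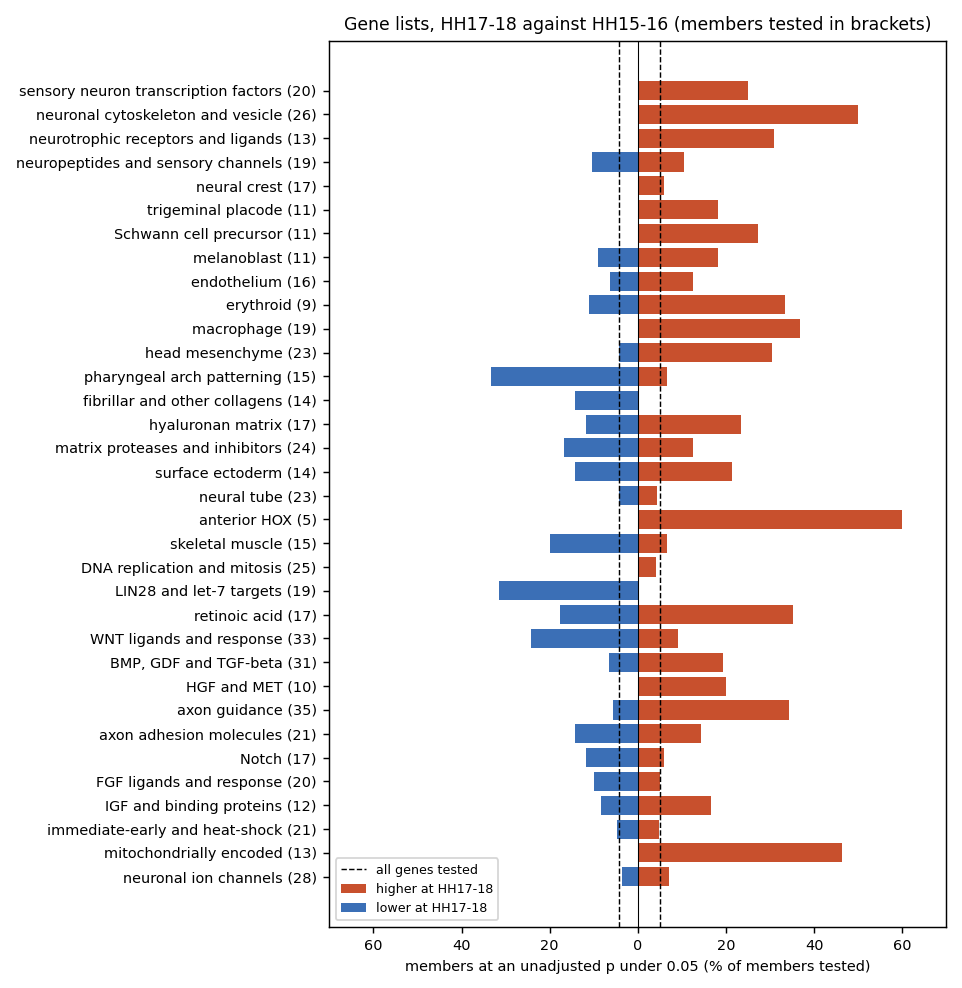
For each of 34 gene lists (y axis, number of members tested in brackets), the share of tested members at an unadjusted edgeR p under 0.05 (x axis, %), higher at HH17-18 to the right and lower to the left, with dashed lines for all genes tested (5.1% and 4.21%). Neuronal cytoskeleton and vesicle genes reached 50% on the higher side, and the LIN28 and pharyngeal arch lists 31.6% and 33.3% on the lower side, while the bar of the anterior HOX list rests on 5 genes.

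Genes of the neuronal cytoskeleton, axon and synaptic vesicle leaned towards HH17-18. Of 26 tested, 20 had a positive log2 fold change, 13 were higher and 0 lower at an unadjusted p under 0.05, 8 had pools above all HH15-16 pools, and the median log2 fold change was 0.41. None passed the adjusted threshold, and 4 were past that of DESeq2. DCX, a microtubule-binding protein of migrating and young neurons, was at 36.4, 32.1 and 36.9 CPM at HH15-16 and 45, 55.2 and 59.4 CPM at HH17-18. The log2 fold change was 0.60 (SE 0.13, adjusted p 0.176). STMN2, a regulator of microtubules in growing axons, was at 12, 14.3 and 24.5 CPM at HH15-16 and 31.1, 30.3 and 73.3 CPM at HH17-18, and HH17-18 replicate 3 was the highest. Its log2 fold change was 1.41 (SE 0.35, adjusted p 0.217). The neurofilament genes NEFM and NEFL had log2 fold changes of 1.03 and 0.86 (SE 0.27 and 0.22, adjusted p 0.246 and 0.231). NEFM was at 74.6, 100 and 144 CPM at HH15-16 and 168, 167 and 318 CPM at HH17-18, so that here too HH17-18 replicate 3 was well above the other pools. The summed level of the list was 1558, 1497 and 1828 CPM at HH15-16 and 1905, 1859 and 2707 CPM at HH17-18, with no overlap of the stages. The count of 13 dropped to 5 without HH17-18 replicate 3, to 8 without HH15-16 replicate 2 and to 9 without HH15-16 replicate 1, and was 17 without HH17-18 replicate 2, while the median stayed between 0.21 and 0.56 when any single pool was left out.

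The list of neurotrophic factor receptors, which also holds ligands, pointed the same way. Of 13 tested genes of this group, 4 were higher and 0 lower at an unadjusted p under 0.05, a count that was 4 to 6 with any single pool left out, and 3 were past the threshold of DESeq2. Their summed level was 125, 179 and 239 CPM at HH15-16 and 176, 267 and 286 CPM at HH17-18, with overlapping stages. At HH13-14 it was 186 to 220 CPM. NTRK3, the receptor of NT-3, was at 5.28, 6.42 and 6.02 CPM at HH15-16 and 6.91, 11.5 and 11.9 CPM at HH17-18 (log2 fold change 0.77, SE 0.21, adjusted p 0.255). NTRK2, the receptor of BDNF, was at 3.42, 1.84 and 1.27 CPM at HH15-16 and 4.81, 3.58 and 6.44 CPM at HH17-18 (log2 fold change 1.19, SE 0.37, adjusted p 0.335). In both NTRK2 and NTRK3 every HH17-18 pool was above every HH15-16 pool. GFRA4, a coreceptor of the GDNF family, had a log2 fold change of 1.07 (SE 0.33, adjusted p 0.329), and its pools overlapped. The member of highest CPM was NGFR, the low-affinity neurotrophin receptor shared with crest cells, at 39.3, 51.9 and 69.8 CPM at HH15-16 and 45.8, 62.9 and 88.02 CPM at HH17-18. Its log2 fold change of 0.29 (SE 0.24, adjusted p 0.758) was within the spread of the pools.

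Transcription factors of sensory neurons had the same sign, and their count too rested on single pools. Of 20 tested, 18 had a positive log2 fold change, 5 were higher and 0 lower at an unadjusted p under 0.05, and the median was 0.45. The 5 became 2 without HH15-16 replicate 1, 1 without HH17-18 replicate 3 and 8 without HH15-16 replicate 3. Only 1 of the 20 had pools above all HH15-16 pools, 0 were past the threshold of DESeq2, and the median was 0.235 without HH15-16 replicate 1. The summed level was 203, 334 and 460 CPM at HH15-16 and 313, 442 and 531 CPM at HH17-18, with overlapping stages. At HH13-14 it was 361 to 509 CPM, and the median of the earlier step was -0.263. RUNX3, which directs the proprioceptive lineage in mouse dorsal root ganglia, was at 0.170, 0.752 and 0.879 CPM at HH15-16 and 1.38, 2.45 and 1.19 CPM at HH17-18. Its pools did not overlap, with a log2 fold change of 1.47 (SE 0.52, adjusted p 0.408). EBF3 was at 26.96, 41.6 and 61.8 CPM at HH15-16 and 57.6, 75.96 and 77.8 CPM at HH17-18, and TLX3, a homeobox gene of sensory neurons, at 1.89, 3.69 and 4.22 CPM at HH15-16 and 3.38, 5.85 and 8.49 CPM at HH17-18, and both had overlapping pools. Their adjusted p-values were 0.399 and 0.491. Among neuropeptides and sensory channels, 2 of 19 were higher and 2 lower. PENK, the enkephalin precursor, was at 3.66, 6.76 and 5.44 CPM at HH15-16 and 9.04, 13 and 9.08 CPM at HH17-18 (log2 fold change 0.97, SE 0.24, adjusted p 0.217). GAL, the galanin precursor, was at 4.05, 5.46 and 8.82 CPM at HH15-16 and 2.24, 3.04 and 2.42 CPM at HH17-18 (log2 fold change -1.26, SE 0.29, adjusted p 0.178). These 2 peptide genes thus had values of opposite sign, with no overlap of pools in either.

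**Figure D5:**
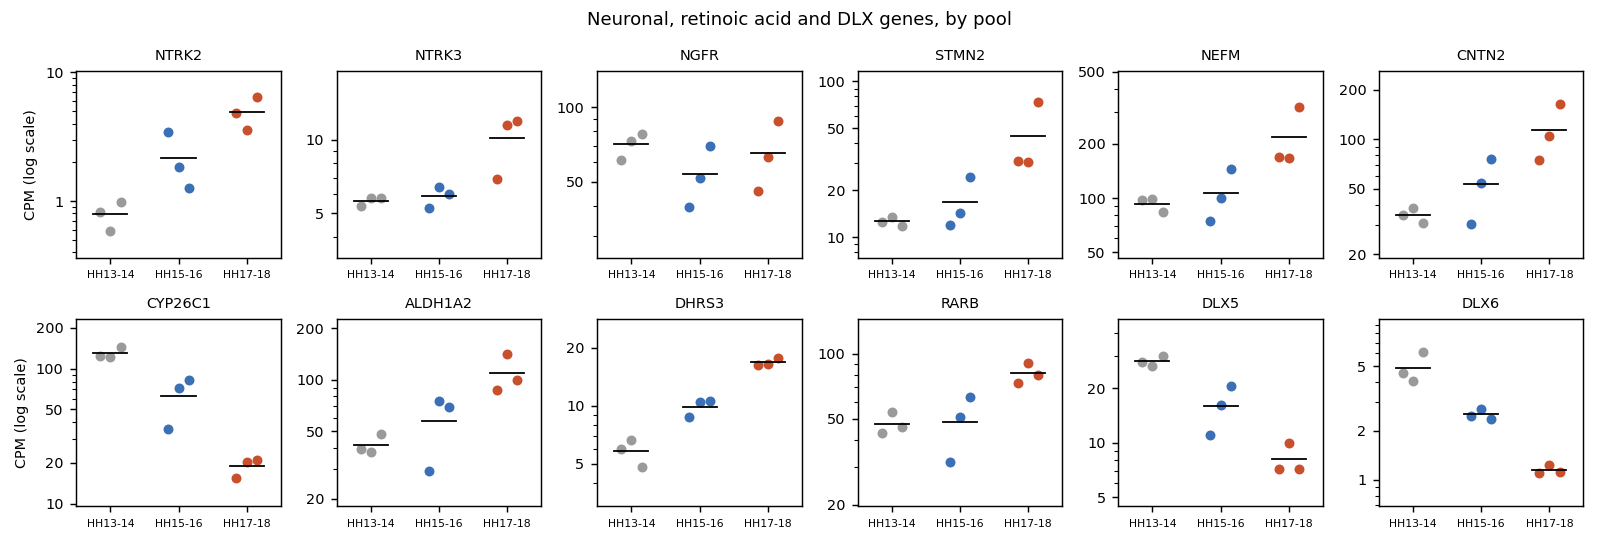
CPM of 12 genes of the neuronal, retinoic acid and DLX groups in each of 9 pools (y axis, log scale) by stage (x axis), with replicates 1 to 3 from left to right as points and stage means as lines. NTRK2, NTRK3, STMN2, NEFM, ALDH1A2, DHRS3 and RARB lie higher at HH17-18 without overlap of the HH15-16 and HH17-18 pools. CYP26C1, DLX5 and DLX6 lie lower without overlap, while the pools of CNTN2 and NGFR overlap. None of these genes passed the adjusted threshold. Over the 17 retinoic acid genes tested, 8 log2 fold changes were positive and 9 negative.

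Axon guidance genes formed a further group with more higher than lower members. Of 35 tested, 12 were higher and 2 lower at an unadjusted p under 0.05, with a median of 0.23, and 4 were past the threshold of DESeq2. The 12 became 7 without HH17-18 replicate 3 and 9 without HH15-16 replicate 2 or HH17-18 replicate 2. Without HH15-16 replicate 1, 8 were higher and 4 lower. SEMA3D, a secreted semaphorin, was at 19.3, 22.7 and 29.9 CPM at HH15-16 and 35.4, 55.1 and 38.9 CPM at HH17-18 (log2 fold change 0.85, SE 0.20, adjusted p 0.202). EPHA4, a receptor of ephrins, was at 119, 152 and 188 CPM at HH15-16 and 200.1, 332 and 259 CPM at HH17-18 (log2 fold change 0.78, SE 0.19, adjusted p 0.217). SLIT2, a secreted ligand of ROBO receptors, was at 48.3, 43.5 and 45.4 CPM at HH15-16 and 64.4, 55.3 and 68.5 CPM at HH17-18 (log2 fold change 0.46, SE 0.11, adjusted p 0.217). In each of these the stages did not overlap. The member of highest CPM, the semaphorin receptor NRP2, had a log2 fold change of -0.25 (SE 0.15, adjusted p 0.656) with overlapping pools. Among 21 adhesion molecules of axons, 3 were higher and 3 lower. CNTN1 and CNTN2, contactins of the axon surface, had log2 fold changes of 1.25 and 1.10 (SE 0.30 and 0.32, adjusted p 0.209 and 0.289). CDH8, a cadherin, had a log2 fold change of -1.03 (SE 0.32, adjusted p 0.328).

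Lists of the lineages that build the ganglion, and the list of melanoblast genes, were small and held 1 to 3 higher members each. Of 17 neural crest genes, 1 was higher and 0 lower at an unadjusted p under 0.05, the cadherin CDH11, and the median was -0.04. These became 1 and 2 without HH15-16 replicate 1, with a median of -0.22. SOX10, the crest and glial transcription factor, was at 69.6, 140.4 and 236 CPM at HH15-16 and 96.7, 189 and 182 CPM at HH17-18, so that its spread within a stage exceeded any difference between stages. Of 11 placode genes, 2 were higher and 0 lower, with a median of 0.18. The counts were 2 and 2 without HH15-16 replicate 1, and the median was -0.03. The 2 higher genes in the fit of all pools were EYA1, a phosphatase and transcriptional cofactor of placodes, with a log2 fold change of 0.55 (SE 0.17, adjusted p 0.318), and DACH1, a cofactor of the same network, with 0.57 (SE 0.19, adjusted p 0.378). Of 11 Schwann cell precursor genes 3 were higher and 0 lower. The 3 became 1 without any of the HH13-14 pools, without HH15-16 replicate 2 or without HH17-18 replicate 3. The smallest p of the list was that of MBP, a myelin protein, at 3.95, 3.40 and 6.95 CPM at HH15-16 and 6.66, 10.1 and 10.9 CPM at HH17-18. It had a log2 fold change of 0.95 (SE 0.28, adjusted p 0.306). Among 11 melanoblast genes 2 were higher and 1 lower. EDNRB2, the endothelin receptor of avian melanoblasts, was at 1.64, 5.64 and 8.60 CPM at HH15-16 and 13.8, 18.5 and 21.6 CPM at HH17-18. Its pools did not overlap, with a log2 fold change of 1.76 (SE 0.46, adjusted p 0.246), and HH15-16 replicate 1 was the lowest. Without that pool the value was 1.33 (adjusted p 0.156).

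No marker of the neighbouring tissues passed the adjusted threshold, some of their lists had several members at an unadjusted p under 0.05, and their part in the other results was not tested. The macrophage list had the largest median of all 34, 1.34, with 7 of 19 members higher and 0 lower at an unadjusted p under 0.05, and all 19 had passed the filter. Its summed level was 44.3, 72.2 and 112 CPM at HH15-16 and 89.1, 139 and 170 CPM at HH17-18, with overlapping stages. CTSS, a lysosomal protease, was at 0.204, 0.376 and 0.684 CPM at HH15-16 and 0.858, 1.77 and 1.96 CPM at HH17-18, and CYBB, a subunit of the phagocyte oxidase, at 0.716, 0.477 and 1.33 CPM at HH15-16 and 1.55, 1.77 and 3.21 CPM at HH17-18. Both were low, and their adjusted p-values were 0.259 and 0.335. IRF8, the member of highest CPM and a regulator of myeloid cells, had a log2 fold change of -0.02 (SE 0.22, adjusted p 0.985). The 7 became 3 without HH15-16 replicate 1, 4 without HH15-16 replicate 2, 16 without HH15-16 replicate 3 and 3 without HH17-18 replicate 3. The median ranged from 0.82 to 2.38 over these fits.

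Of 23 head mesenchyme genes, 7 were higher and 1 lower at an unadjusted p under 0.05, with a median of 0.32. The median was 0.07 without HH15-16 replicate 1, with 4 genes higher and 2 lower. The 7 also became 4 without HH15-16 replicate 2, 4 without HH17-18 replicate 2 and 10 without HH15-16 replicate 3. The summed level was 1026, 1718 and 2138 CPM at HH15-16 and 1684, 2712 and 1900 CPM at HH17-18, and the stages overlapped. MEOX1, a homeobox gene of paraxial mesoderm, was at 3.15, 5.93 and 7.70 CPM at HH15-16 and 9.10, 25.4 and 18.5 CPM at HH17-18 (log2 fold change 1.66, SE 0.38, adjusted p 0.180). MEOX2, its relative in mesoderm and limb muscle, was at 1.18, 4.32 and 6.32 CPM at HH15-16 and 7.74, 14.97 and 10.4 CPM at HH17-18 (log2 fold change 1.48, SE 0.48, adjusted p 0.347). In both genes HH15-16 replicate 1 was the lowest pool and the stages did not overlap, and without it their log2 fold changes were 1.37 and 1.05 (adjusted p 0.276 and 0.341). ALX4, the member of highest CPM and a homeobox gene of frontonasal mesenchyme, had a log2 fold change of 0.32 (SE 0.26, adjusted p 0.753).

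Vessels, ectoderm, neural tube and muscle gave smaller or mixed values. The erythroid list, of red cell genes, had a median log2 fold change of 0.53, above the 0.32 of head mesenchyme. Without HH15-16 replicate 1 these medians were 0.26 and 0.07. Of 9 erythroid genes 3 were higher and 1 lower, and their summed level was 689, 1474 and 1082 CPM at HH15-16 and 1891, 1739 and 1241 CPM at HH17-18. HBZ, an embryonic alpha-type globin that can share reads with its paralogs, was at 357, 804 and 570 CPM at HH15-16 and 1099, 944 and 673 CPM at HH17-18. No erythroid gene was higher at that p without HH15-16 replicate 1 or 3 or without HH17-18 replicate 1 or 2, while 6 were without HH15-16 replicate 2 and 5 without HH17-18 replicate 3. Of 16 endothelial genes 2 were higher and 1 lower, with summed levels of 497 to 742 CPM at HH15-16 and 649.6 to 833 CPM at HH17-18, and CDH5, the cadherin of vessels, was at 80.6, 106 and 113 CPM at HH15-16 and 105, 128 and 116 CPM at HH17-18. Of 14 surface ectoderm genes, which summed to 398 to 686 CPM at HH15-16 and 447 to 616 CPM at HH17-18, 3 were higher and 2 lower, and without HH15-16 replicate 1 the counts were 1 and 6, and without HH17-18 replicate 2 they were 0 and 4. EPCAM, an adhesion molecule of epithelia, was at 87.5, 106 and 101 CPM at HH15-16 and 75.5, 79.6 and 68.4 CPM at HH17-18 (log2 fold change -0.40, SE 0.10, adjusted p 0.217), and CLDN1, a tight junction protein, at 146, 220.3 and 183 CPM at HH15-16 and 128, 139.9 and 111 CPM at HH17-18 (log2 fold change -0.54, SE 0.16, adjusted p 0.296). Both epithelial genes were lower at HH17-18 without overlap. The 3 higher members were WNT6, GRHL3 and GATA3. WNT6, a WNT ligand of surface ectoderm, was at 5.64, 13.02 and 14.5 CPM at HH15-16 and 16.8, 25.8 and 15.6 CPM at HH17-18 (log2 fold change 0.81, SE 0.32, adjusted p 0.460), and GRHL3, a transcription factor of epithelia, at 8.25, 16.1 and 14.8 CPM at HH15-16 and 19.2, 21.3 and 16.8 CPM at HH17-18 (log2 fold change 0.55, SE 0.22, adjusted p 0.467). GATA3, another transcription factor of ectoderm, had a log2 fold change of 0.97 (SE 0.39, adjusted p 0.477) with overlapping pools. HH15-16 replicate 1 was the lowest of the 6 pools for all 3.

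Of 23 neural tube genes 1 was higher and 1 lower, and SOX3 had no counts in any pool. Having no counts in this annotation does not show that SOX3 was not expressed. The lower count was 4 without HH17-18 replicate 1. The summed level of these genes was 1150, 744 and 511 CPM at HH15-16 and 832, 358 and 675 CPM at HH17-18. The lower one was PAX6, a transcription factor of the eye, lens and neural tube, at 122, 42.5 and 30.6 CPM at HH15-16 and 12.6, 12.3 and 22.7 CPM at HH17-18. HH15-16 replicate 1, the pool with the largest summed neural tube level, was far above the others. The log2 fold change was -2.03 (SE 0.46, adjusted p 0.178), and all HH17-18 pools were below all HH15-16 pools. Without HH15-16 replicate 1 it was -1.21 (adjusted p 0.167). Of 15 skeletal muscle genes 1 was higher and 3 were lower, with a median of -0.31 and summed levels of 97.2 to 129.7 CPM at HH15-16 and 105 to 121 CPM at HH17-18. TNNC2, a fast troponin, had a log2 fold change of -0.81 (SE 0.28, adjusted p 0.378) with overlapping pools.

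Genes that pattern the pharyngeal arches included more lower than higher members. Of 15 tested, 5 were lower and 1 higher at an unadjusted p under 0.05, a lower count that was 4 or 5 with any single pool left out, and 3 were past the threshold of DESeq2. DLX5 and DLX6 are neighbouring homeobox genes of the ventral arch, and EDN1 is the secreted endothelin that switches them on there in mouse and fish. DLX6 was at 2.49, 2.73 and 2.36 CPM at HH15-16 and 1.10, 1.23 and 1.12 CPM at HH17-18 (log2 fold change -1.13, SE 0.22, adjusted p 0.123). DLX5 was at 11.04, 16.1 and 20.6 CPM at HH15-16 and 7.15, 9.91 and 7.20 CPM at HH17-18 (log2 fold change -0.98, SE 0.21, adjusted p 0.172). EDN1 was at 7.11, 3.35 and 4.005 CPM at HH15-16 and 2.14, 2.47 and 2.28 CPM at HH17-18 (log2 fold change -1.07, SE 0.27, adjusted p 0.231). None of the 3 had overlapping stages. The higher member was EDNRA, the receptor of EDN1, at 25.7, 35.3 and 34.9 CPM at HH15-16 and 44.1, 51.5 and 39.9 CPM at HH17-18. The log2 fold change was 0.50 (SE 0.14, adjusted p 0.260). The summed level of the list was 86.6, 115 and 138 CPM at HH15-16 and 97.6, 136 and 104 CPM at HH17-18, with overlapping stages.

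Retinoic acid genes split in sign. Of 17 tested, 6 were higher and 3 lower at an unadjusted p under 0.05, and 5 and 3 had pools that did not overlap. Over the list, 8 log2 fold changes were positive and 9 negative. The median was -0.02, and -0.16 without HH15-16 replicate 1. CYP26C1, one of the enzymes that break retinoic acid down, was at 35.5, 71.4 and 82 CPM at HH15-16 and 15.3, 20.5 and 20.96 CPM at HH17-18. Its log2 fold change of -1.74 (SE 0.26) had an adjusted p of 0.0510, just short of the threshold, and HH15-16 replicate 1 was the lowest pool of its stage. ALDH1A2, the main enzyme of retinoic acid synthesis in early embryos, was at 29.1, 74.8 and 68.9 CPM at HH15-16 and 87.1, 142 and 99.8 CPM at HH17-18 (log2 fold change 0.93, SE 0.30, adjusted p 0.354), and without HH15-16 replicate 1 its log2 fold change was 0.60. DHRS3, which reduces retinal to retinol and is induced by retinoic acid in other vertebrates, was at 8.72, 10.5 and 10.6 CPM at HH15-16 and 16.3, 16.6 and 17.6 CPM at HH17-18 (log2 fold change 0.76, SE 0.15, adjusted p 0.128). RARB, a receptor and known target, was at 31.6, 50.8 and 63.3 CPM at HH15-16 and 73.5, 90.6 and 79.5 CPM at HH17-18 (log2 fold change 0.74, SE 0.21, adjusted p 0.265). CYP26C1, the only one of the 3 lower members given here, had lower values, while ALDH1A2, DHRS3 and RARB had higher ones. Most genes named from this list are thus higher ones, and they do not stand for the list, where 9 of 17 values were negative. The other enzymes of breakdown, CYP26A1 and CYP26B1, had the opposite sign to CYP26C1, with log2 fold changes of 1.22 and 0.53 (SE 0.45 and 0.24, adjusted p 0.428 and 0.535). CRABP2, a carrier of retinoic acid and the member of highest CPM, was also higher, with a log2 fold change of 0.59 (SE 0.18, adjusted p 0.335).

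Genes of the WNT pathway also included more lower than higher members. Of 33 tested, 8 were lower and 3 higher at an unadjusted p under 0.05, and the median was -0.30. The 8 became 13 without HH15-16 replicate 3 and were 6 to 12 without any other single pool. Beside WNT16, WNT2B, another ligand, was at 66.3, 97.1 and 107 CPM at HH15-16 and 47.9, 68.7 and 45.8 CPM at HH17-18 (log2 fold change -0.73, SE 0.18, adjusted p 0.224). NOTUM, an enzyme that inactivates WNT ligands and is itself induced by them, was at 59.7, 39.2 and 23.04 CPM at HH15-16 and 25.4, 16.4 and 16.1 CPM at HH17-18 (log2 fold change -1.07, SE 0.30, adjusted p 0.265). The pools of both genes overlapped. FZD1, a WNT receptor, had the opposite sign, at 222, 200.4 and 235 CPM at HH15-16 and 248, 262 and 292 CPM at HH17-18 (log2 fold change 0.29, SE 0.08, adjusted p 0.276). The summed level of the list was 1696, 1681 and 1635 CPM at HH15-16 and 1512, 1491 and 1461 CPM at HH17-18, and every HH17-18 pool was below every HH15-16 pool.

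In the BMP and TGF-beta group, ligands and antagonists had values of both signs. Of 31 tested, 6 were higher, GDF10 among them, and 2 lower at an unadjusted p under 0.05. The 2 lower became 4 without HH15-16 replicate 1 and 5 without HH15-16 replicate 2 or HH17-18 replicate 1. BMP4 was at 14.8, 15.5 and 10.03 CPM at HH15-16 and 4.78, 6.80 and 3.89 CPM at HH17-18 (log2 fold change -1.38, SE 0.23, adjusted p 0.0735). BMP2 was at 5.84, 7.79 and 7.47 CPM at HH15-16 and 3.22, 4.06 and 5.25 CPM at HH17-18 (log2 fold change -0.75, SE 0.22, adjusted p 0.282). BMPER, a secreted protein that binds BMPs, was at 1.72, 2.15 and 2.21 CPM at HH15-16 and 5.04, 15.1 and 7.48 CPM at HH17-18 (log2 fold change 2.18, SE 0.35, adjusted p 0.0666). BMP4 and BMP2 were thus lower and BMPER higher, in pools that did not overlap, and none of the 3 passed the adjusted threshold. ID2, a transcriptional target of BMP signals and the member of highest CPM, had a log2 fold change of 0.22 (SE 0.17, adjusted p 0.733). Of 10 genes around HGF and MET, HGF and PLAU, the urokinase protease, were higher and 0 were lower. Without HH15-16 replicate 1, 2 were higher and 2 lower.

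The matrix around hyaluronan, to which TNFAIP6 belongs, had 4 of 17 genes higher and 2 lower at an unadjusted p under 0.05. HAS2, the main hyaluronan synthase of embryos, was at 53.98, 50.1 and 79.4 CPM at HH15-16 and 31.6, 47.6 and 41.3 CPM at HH17-18 (log2 fold change -0.61, SE 0.19, adjusted p 0.335). HAPLN1 was at 18.8, 23.01 and 26.99 CPM at HH15-16 and 33.8, 45.05 and 38.05 CPM at HH17-18 (log2 fold change 0.76, SE 0.15, adjusted p 0.123). The synthase thus had lower values and the link protein higher ones, while VCAN, the proteoglycan versican and the member of highest CPM, had a log2 fold change of -0.02 (SE 0.10, adjusted p 0.961). Among 24 matrix proteases and inhibitors 3 were higher and 4 lower. ADAM12, a metalloprotease of mesenchyme and muscle, was at 12.3, 10.3 and 12.2 CPM at HH15-16 and 14.2, 22.1 and 21.2 CPM at HH17-18 (log2 fold change 0.73, SE 0.19, adjusted p 0.241), and ADAM8, a metalloprotease of the same family, at 12.2, 13.8 and 9.16 CPM at HH15-16 and 7.74, 7.71 and 7.80 CPM at HH17-18 (log2 fold change -0.60, SE 0.16, adjusted p 0.255). Of 14 collagens 0 were higher and 2 lower, although 11 had a positive log2 fold change and the median was 0.25. Without HH15-16 replicate 3, 7 were higher and 0 lower, and without HH17-18 replicate 1, 2 were higher and 1 lower. COL1A1 had a log2 fold change of 0.39 (SE 0.23, adjusted p 0.641).

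The list built around LIN28 and the targets of let-7, which holds LIN28A and NR6A1, had 6 of 19 members lower and 0 higher at an unadjusted p under 0.05. The lower count was 5 to 9 with any single pool left out, and 4 members were past the threshold of DESeq2. LIN28B, the paralog of LIN28A, was at 389, 290.2 and 333 CPM at HH15-16 and 248, 236 and 258 CPM at HH17-18 (log2 fold change -0.45, SE 0.10, adjusted p 0.199). MYC, a growth regulator, was at 49.3, 56.5 and 45.99 CPM at HH15-16 and 33.7, 29.3 and 22.4 CPM at HH17-18 (log2 fold change -0.83, SE 0.16, adjusted p 0.123). Neither overlapped between stages, and HMGA2 and CCND1 were the other members at that level. The summed level of the list was 4241, 3966 and 3977 CPM at HH15-16 and 3624, 3343 and 3403 CPM at HH17-18. The stages did not overlap. Both the count and the sum include LIN28A, LIN28B and NR6A1. No sum was taken without these genes, so it does not show a fall of the other members as a group. IGF2BP3, the member of highest CPM and an RNA-binding protein, had a log2 fold change of -0.08 (SE 0.08, adjusted p 0.774).

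The remaining lists are given by their counts at an unadjusted p under 0.05. Of 25 genes of DNA replication and mitosis, 1 was higher and 0 lower, and the median was 0.01. TOP2A, the mitotic topoisomerase, was at 1125, 1088 and 1081 CPM at HH15-16 and 1219, 1054 and 1102 CPM at HH17-18. Of 17 Notch genes 1 was higher and 2 lower, of 20 FGF genes 1 and 2, of 12 IGF genes 2 and 1, of 28 neuronal ion channel genes 2 and 1, and of 21 immediate-early and heat-shock genes 1 and 1. The higher Notch count was 5 without HH17-18 replicate 2. The lower FGF count was 6 without HH15-16 replicate 3 and 5 without HH17-18 replicate 1. The higher ion channel count was 5 without HH15-16 replicate 3 and 0 without HH15-16 replicate 1, and the lower immediate-early count was 4 without HH15-16 replicate 1. JAG1, a Notch ligand, had a log2 fold change of -0.69 (SE 0.21, adjusted p 0.335). Of 14 genes in the anterior HOX list, 5 passed the filter, and 3 of these were higher and 0 lower, the largest share of any list (60%). The 3 became 1 without HH15-16 replicate 1 or 3 or HH17-18 replicate 3. HOXA2, which patterns the second pharyngeal arch and was among the 3, was near 1 CPM, with 0.443, 0.477 and 0.472 CPM at HH15-16 and 1.29, 0.402 and 2.47 CPM at HH17-18. The 5 genes summed to 705 to 749 CPM at HH15-16 and 769 to 850 CPM at HH17-18, nearly all from members not named here. HOXA3, HOXA4, HOXB1, HOXB2, HOXB3, HOXB4, HOXD3 and HOXD4 were filtered out, so the share says nothing about them. Of 13 mitochondrially encoded genes 6 were higher and 0 lower, by small amounts, with a median of 0.14. That count was 1 without HH17-18 replicate 2 and 3 without HH15-16 replicate 2 or HH17-18 replicate 3. ATP8, a subunit of ATP synthase whose reading frame overlaps ATP6, had a log2 fold change of 0.32 (SE 0.06, adjusted p 0.128).

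Whether the later step differed from the earlier one was tested in the same fit, as the difference between the log2 fold changes from HH15-16 to HH17-18 and from HH13-14 to HH15-16. Both steps use the HH15-16 pools, so their values are not independent. Of the 17724 genes tested, 773 were at an unadjusted p under 0.05 for the difference between the steps. This is a share below 0.05, and these genes are not calls. The difference passed an adjusted p of 0.05 for 1 gene (0.00564% of the genes tested). That gene was CCDC3, with a log2 fold change of -0.02 (SE 0.12) in the earlier step, -2.20 (SE 0.12) in the later one, and a difference of -2.17 (SE 0.20, adjusted p 0.00826). For the other 13 genes the adjusted p of the difference was 0.424 to 0.932, and none of the 14 passed the threshold in the earlier step.

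Side by side, several of these genes had values of the same sign in both steps. LIN28A had a log2 fold change of -0.71 (adjusted p 0.0617) in the earlier step and -0.99 in the later one, with 587, 574 and 572 CPM at HH13-14. HGF had 1.49 and then 2.03, and BPIFB6 -1.15 and then -2.61. Others had a value near 0 first, such as TNFAIP6 with -0.15 and RHOU with 0.06. Of the 14 genes, 5 had a higher mean at HH15-16 than at HH13-14. CYP26C1 had -1.05 and then -1.74, and DLX5 -0.82 and then -0.98. BMPER, at 3.97, 3.55 and 3.40 CPM at HH13-14, had -0.84 and then 2.18, and the difference did not pass the threshold (adjusted p 0.932).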

How the data were processed

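Poly(A)-enriched libraries were made with a TruSeq kit from pooled ganglia, per the labels' protocols. The authors deposited whole-number counts per gene for 18 libraries. Trim Galore, HISAT2, featureCounts and the build GRCg7b are named per the submitters' processing notes. Their versions, the use of strand, and whether reads or fragments were counted are not given in the sources used here, so that overlapping and antisense genes cannot be separated.

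Technical libraries were summed per pool (chi-square per degree of freedom 2.14 to 2.33 between them, above Poisson noise). Genes were filtered with filterByExpr, scaled by the trimmed mean of M-values (TMM), and fitted over all 9 pools with glmQLFit and glmQLFTest of edgeR 4.0.16 in R 4.3.3, without covariates. All tests were two-sided at a Benjamini-Hochberg adjusted p of 0.05 over all genes tested. SE is the one implied by the test statistic, and CPM uses the scaled library sizes. P-values set a difference against the spread between pools, which was estimated over all 9 pools and drawn towards that of other genes. The labels do not say whether the pools came from separate collections. Positions and overlapping genes were taken from RefSeq by symbol, which matched 12044 of the genes tested. The procedure was run on simulated counts with known changes. No simulated pool was made to stand apart, so that run does not show how many changes were missed here. Alternatives used DESeq2 1.42.0, limma 3.58.1 voom with sample weights, other filters and scaling, each lane, the replicate number as a block, the 2 stages alone, and each pool left out in turn. List counts without single pools were added after the data were seen.

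The comparison, the gene lists and the genes named were chosen with earlier results of these data known. Genes named are all 14 past the threshold, the 12 nearest ones per direction with at least 5 CPM and no overlap, and per list the 4 members of smallest p and the one of highest CPM, some of which are not reported here. The other genes named, such as MET, ALDH1A2, CYP26A1, CYP26B1, HMGA2, CCND1 and those added when a pool was left out, were chosen after their values were seen.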

Additional observations from a re-analysis of the deposited data

Results flagged for a closer look

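CCDC3 was the single gene whose change differed between the later and the earlier step in the edgeR test of the difference. The later step minus the earlier step was -2.17 on the log2 scale (SE 0.20, edgeR adjusted p 0.00826). The HH13-14 pools were at 40.8, 37.8 and 41.4 CPM, the HH15-16 pools at 36.6, 45.6 and 36.01 CPM and the HH17-18 pools at 8.07, 9.51 and 8.24 CPM. Both steps share the HH15-16 pools.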

How the results depend on the processing

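The numbers of genes past the threshold depended on the processing more than the fold changes did. The 3 higher and 11 lower genes became 174 and 175 in the DESeq2 test, 24 and 38 with no filter on low counts, 0 and 3 with lane 7 alone, 5 and 11 with lane 8 alone, 6 and 13 with voom, and 0 and 1 in the fit of the 2 stages. Without single pools they ranged from 0 to 19 higher and from 3 to 23 lower. DESeq2 size factors (3 and 12), a minimum of 10 counts in every pool (3 and 11) and a required change of at least 1 in log2 size (3 and 8) stayed within 1.5 times. The single gene that differed between steps became 10 in DESeq2 and 0 to 2 without single pools, 0 of them without each HH13-14 pool. With the replicate number as a block, 5 genes were higher and 12 lower, and 11 of the 14 passed. RHOU, GABRB2 and BPIFB3 did not. The labels name no shared origin of same-numbered pools. Deviations from the stage means correlated at 0.303, 0.137 and 0.044 between same-numbered pools of the 2 stages. Between differently numbered pools they correlated at -0.399 to 0.322. With 3 pools per stage, these values cannot decide whether the numbers pair the pools. The causes of these shifts were not tested. Over the genes named, 0 of 2266 values reversed in sign past the threshold and 129 gained the call. The 14 called genes had 252 of these values, of which 88 lost the call and 164 kept it. List medians stayed within the spread of the pools in 603 of 612 cases. Depth was 53458986 to 67193695 counts in the 6 pools compared. The spread was 24.7% within HH15-16, 21.2% within HH17-18 and 20.2% in the fit of all pools. With 3 pools per stage, this limits what can be called.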

Other observations

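Genes placed on chromosome W by the annotation, which in birds is carried by females, varied between pools of the same stage. None of the 3 given here passed the threshold between stages, which does not exclude a difference between the stages. They were chosen after their values were seen. HNRNPKL was at 56.0, 143 and 60.3 CPM in the HH15-16 pools and at 148, 98.8 and 141 CPM in the HH17-18 pools (edgeR adjusted p 0.684). SPIN1L was at 8.16, 22.8 and 8.79 CPM and then at 19.6, 14.3 and 24.1 CPM (edgeR adjusted p 0.710), and UBAP2L2 at 14.3, 44.7 and 17.6 CPM and then at 42.7, 31.1 and 36.9 CPM (edgeR adjusted p 0.729). HH15-16 replicate 2 was the highest pool of its stage for all 3 genes. The labels do not give the sex of the embryos in a pool.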
